A study of Mus musculus with 13 samples.

Results

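The genes described here mark prehypertrophic and hypertrophic chondrocytes: Ihh, Pth1r, Prkg2, Runx2, Runx3, Foxa2, Foxa3, Mef2c and Col10a1. A probe set, the unit of measurement on the array, belonged to the group when the probe annotation gave it exactly one of these symbols. This rule found 8 of the 9 genes with 15 probe sets, of 18193 named genes and 45037 probe sets in all. Mef2c had 5 probe sets, Prkg2 had 3, Runx3 had 2 and the other 5 genes had 1 each. The annotation held no probe set named Runx2, and its probe set was named through a supplementary table of the study that lists genes higher in vertebrae. That table was made from the control arrays, so Runx2 is left out of the counts, and its difference between the control tissues is given as a description. The study also names Prkg2 among its vertebrae enriched genes, from the same arrays. Its 3 probe sets were named by the annotation and stay in the counts. The members were chosen with earlier results of these data known, so the counts describe these arrays.

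The study used laser capture to cut presumptive intervertebral disc (IVD) and vertebral cartilage from lumbar sections of mouse embryos at E13.5, and measured RNA on 13 Affymetrix arrays after amplification of 50 ng. Control vertebrae (3 arrays) and control IVD (3 arrays) had the genotype Cre-;Tgfbr2lox/wt and came from the same mice. Mutant IVD (4 arrays, Cre+;Tgfbr2lox/lox) and mutant vertebrae (3 arrays, labelled Cre+;Tgrbr2lox.lox) carried Cre under the Col2a promoter, so deletion was limited to cells that had used this promoter. The IVD captures were mostly presumptive annulus fibrosus with little notochord. No group held a Cre-positive control, and controls kept 1 floxed allele, so Cre itself and the loss of Tgfbr2 cannot be told apart.

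Chondrocytes of a growing cartilage stop dividing, pass through a prehypertrophic state and then enlarge before bone replaces the matrix. Prehypertrophic cells secrete Indian hedgehog, which through parathyroid hormone related protein and its receptor delays the entry of neighboring cells into this program. Runx, Mef2 and Foxa factors drive it forward, and type X collagen is the matrix product of the enlarged cell.

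Every value below is a log2 signal relative to the probe set's own median over the 13 arrays, which was 0 for all of them. The values therefore show how arrays differ in 1 gene and hold no level of expression. Precision is set by how many arrays there are. A probe set was called when limma's p was under 0.05 after Benjamini-Hochberg adjustment across the 45037 probe sets. The p-values set a difference against the spread between these arrays, which the study describes as biological replicates. The fit of all arrays treats them as independent, although the control tissues came from the same mice. In bulk tissue, fewer cells of a type and less RNA per cell cannot be told apart.

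One array went against its label. In mutant IVD 3 the mean of 12 annulus and fibrous matrix genes was -1.55, below all 6 vertebrae arrays (-1.53 to -0.11), while the other mutant IVD arrays had 0.69 to 1.41. The study proposes that IVD without Tgfbr2 comes to resemble vertebrae, and whether this array reflects that was not tested. The main differences that use this array are also given without it. A list of 14 neuronal genes had its highest mean, 2.90, in the same array, with 2.25 in control vertebrae 3 and at most 0.68 elsewhere. Liver genes had means of 2.85 to 6.10 in control vertebrae 1, control IVD 1, mutant IVD 3 and mutant IVD 4, and at most 0.25 elsewhere. Skeletal muscle genes were highest in control IVD 1 (2.07) and mutant IVD 4 (2.25). Y-linked genes had means of 1.55 to 2.35 in 5 mutant arrays and at most -0.01 in mutant vertebrae 3, mutant IVD 3 and the 6 control arrays. Xist had the opposite pattern, so sex was not balanced between the genotypes. None of the 3 probe sets of Tgfbr2 was lower without overlap in the mutant arrays of either tissue. For 1426397_at the values were -2.10, -0.68 and -0.17 in mutant vertebrae against 0, -0.02 and -0.43 in control vertebrae. Mutant IVD ran from 0.003 to 1.31 and control IVD from -0.53 to 0.99. Where these probes lie against the deleted part is not known here, so they do not check the genotype.

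The members as a group had lower values in IVD than in vertebrae. Between the control tissues all 15 probe sets had a lower mean in IVD, as did 53.7% of all probe sets, and the median of the 8 genes was -0.90 on the log2 scale against -0.01 over all named genes. In 11 of the 15 the 3 IVD arrays lay below the 3 vertebrae arrays without overlap, where 3.9% of all probe sets did so. At an unadjusted p under 0.05, 8 of the 15 were lower, against 1.21% of all. None was called in the fit of all arrays by limma, where 0% of all probe sets were, nor by the unequal variance test of the study's methods (6 of 15 at an unadjusted p under 0.05). The fit shares its estimate of the spread over all arrays, and without mutant IVD 3 it called 1 of the 15 between the control tissues, 1435460_at of Prkg2 (-2.89, adjusted p = 0.0393), against 0.02% of all. Leaving this array out did not change the difference, and the standard error was 0.36 against 0.57 with it. The call is therefore given as a description. When the control arrays alone were fitted with the array number as a random block, 2 of 15 were called, against 0.0933% of all. These were the same probe set of Prkg2 and that of Foxa3. The control tissues came from the same mice, but the labels do not say which array numbers share a mouse, so the block rests on the numbers and on how alike the numbered arrays deviated.

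Between the mutant tissues 14 of the 15 were lower in IVD (53.3% of all) and the median of the 8 genes was -1.30, against 0.001 over all named genes. Here 9 of 15 did not overlap (3.21% of all), and 13 were lower at an unadjusted p under 0.05 (3.72% of all). None was called by limma, against 0.0155% of all, or by the unequal variance test (11 of 15 at an unadjusted p under 0.05), and the smallest adjusted p of a member was 0.0861 by limma. Without mutant IVD 3 all 15 were lower, the median was -1.40, 11 did not overlap (5.19% of all) and 6 were called by limma, against 0.393% of all. The called probe sets were all 3 of Prkg2, 1 of 2 of Runx3, and those of Ihh and Foxa3. Mutant IVD 3 was set apart by list values like those of vertebrae, so leaving it out favors a wider difference between the tissues. These calls are therefore given as a description. The plots of values by array and by probe set show the split between the tissues.

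**Figure D1:**
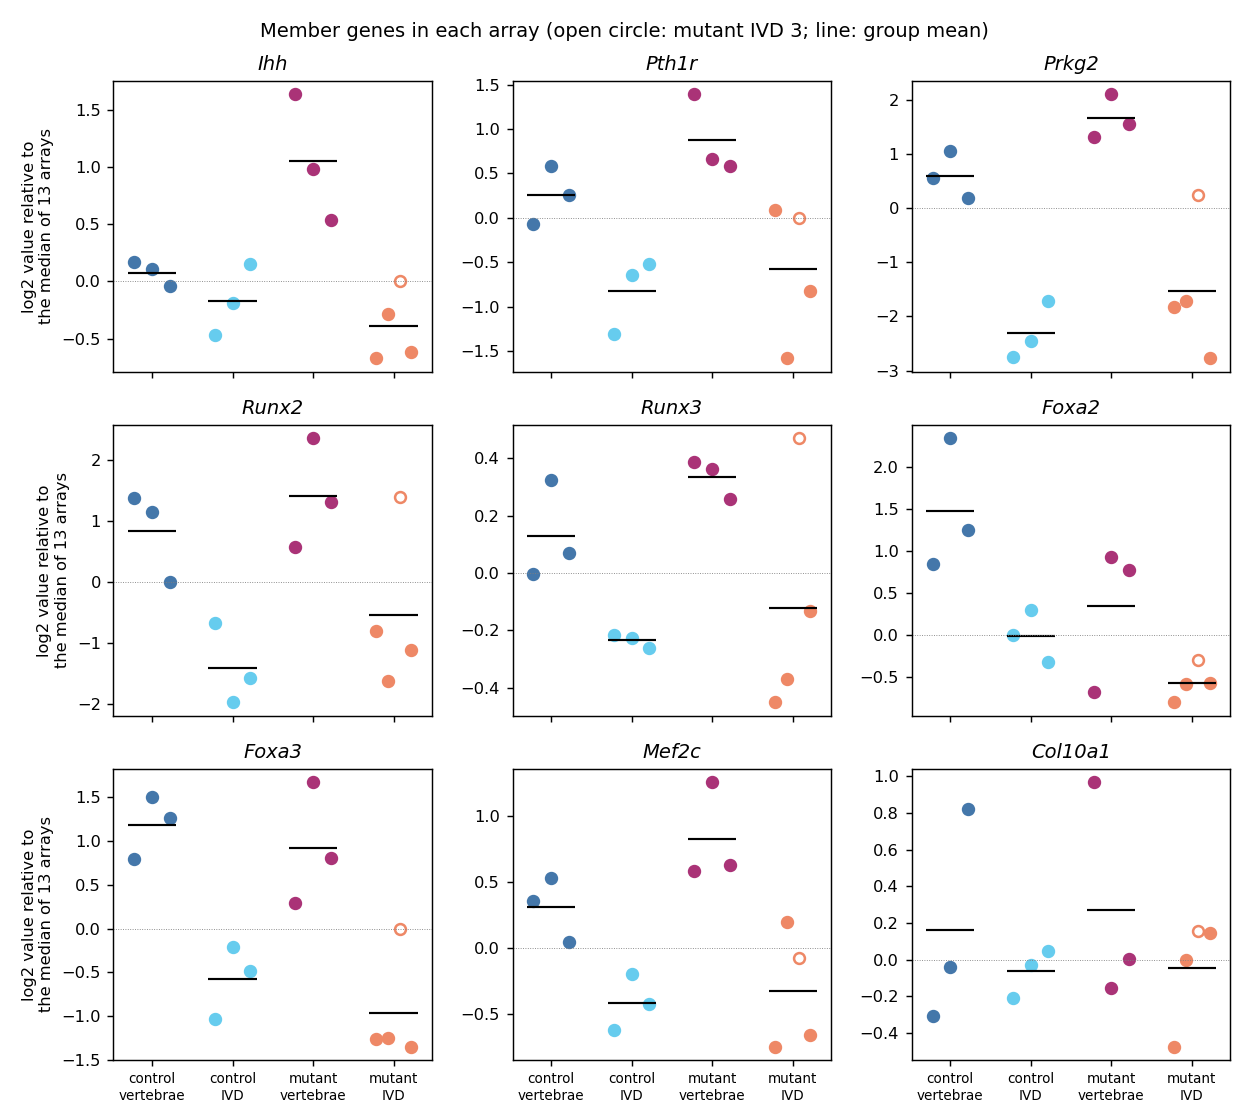
Value of each member gene (mean of its probe sets; vertical axis, log2 relative to the median of the 13 arrays) in each array, by group. Points are arrays, lines are group means and the open circle is mutant IVD 3; Prkg2 separates the tissues widely except in that array (0.24), and Col10a1 does not separate them.

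**Figure D2:**
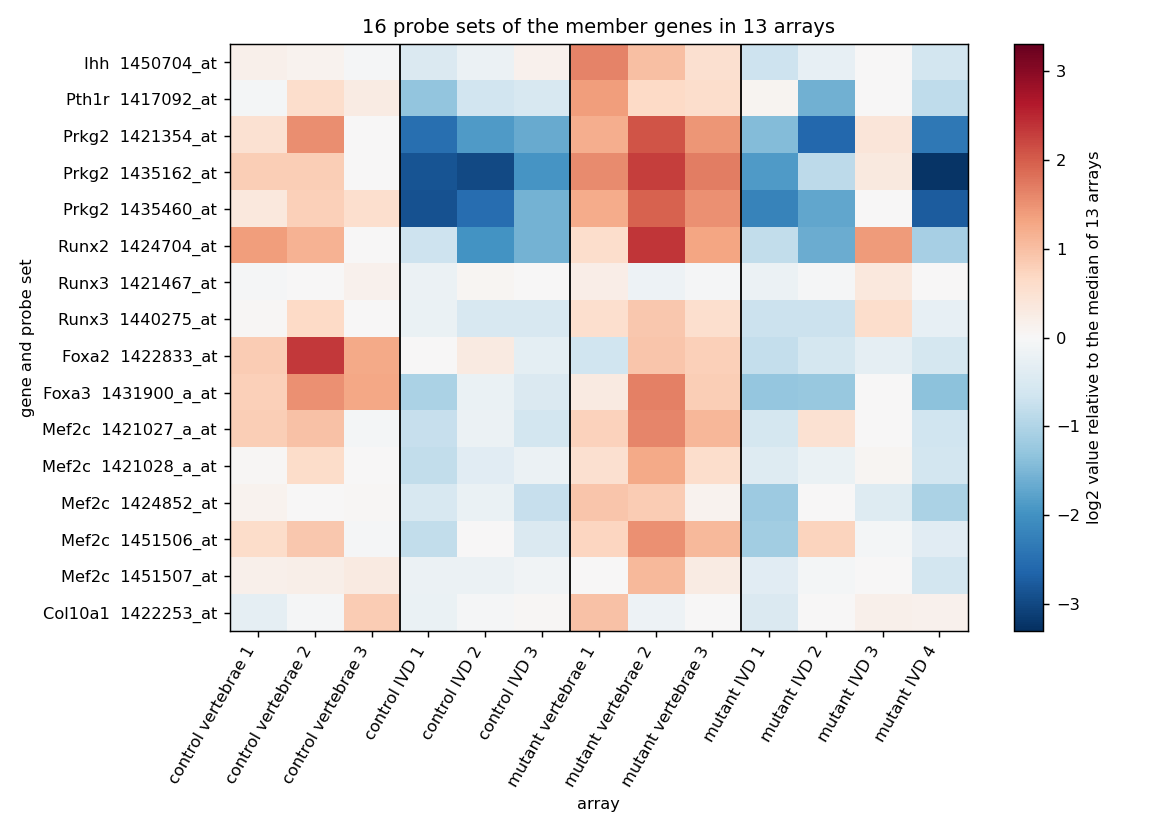
The 16 probe sets of the 9 genes (rows) in the 13 arrays (columns, by group), colored by log2 value relative to the median of the 13 arrays, red high and blue low. The 3 Prkg2 rows run alike, while the 2 Runx3 rows do not.

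Ihh encodes the secreted ligand Indian hedgehog. Its probe set was near its median in control vertebrae, with 0.17, 0.10 and -0.04, and was -0.47, -0.19 and 0.15 in control IVD. Mutant vertebrae had 1.64, 0.98 and 0.54, and mutant IVD had -0.67, -0.28, 0 and -0.61. All 3 mutant vertebrae arrays thus lay above the other 10, while the control tissues overlapped. The mean of mutant vertebrae was 0.97 higher than that of control vertebrae (standard error 0.28, 95% interval 0.39 to 1.56 for the gene), with an unadjusted p of 0.0043 and an adjusted p of 0.998 by limma. The difference between IVD and vertebrae was -0.25 in control and -1.44 in mutant tissue. The change of this difference with genotype was -1.20 (standard error 0.38), with an unadjusted p of 0.0083 and an adjusted p of 0.99999 by limma, and -1.33 without mutant IVD 3. Ihh was the 1 member of 15 with an interaction below 0 at an unadjusted p under 0.05, against 0.582% of all probe sets, and no member was called, where 0% of all were. Between mutant tissues Ihh was called only without mutant IVD 3, with -1.58 and an adjusted p of 0.0380 by limma, and in the fit of all arrays its adjusted p was 0.121.

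Ihh was highest in mutant vertebrae 1, an array that stood apart in the spread of its values. It had the largest spread over all probe sets (SD 0.743, against 0.349 to 0.512 in the other vertebrae arrays). Its log2 ratio of 3-prime to 5-prime signal was 1.14 for Gapdh, where control vertebrae ran from -0.13 to 0.48, and -0.32 for Actb, where they ran from -1.35 to 0.60. For Gapdh the ratio was higher in mutant IVD 4 and nearly as high in mutant IVD 1. A high ratio was thus not particular to mutant vertebrae 1, and both IVD arrays enter the differences of Ihh that use mutant IVD. Without mutant vertebrae 1 the difference in Ihh between mutant and control vertebrae was 0.68, and with arrays weighted by their quality 0.64. Y-linked genes were high in mutant vertebrae 1 and 2 and not in mutant vertebrae 3 or the controls. With their mean as a covariate the difference in Ihh was 0.98. The same covariate moved the difference between mutant and control vertebrae from 1.06 to 1.71 in Prkg2 and from 0.57 to 1.30 in Runx2. Between mutant and control IVD it moved that of Prkg2 from 0.78 to 1.56, that of Runx2 from 0.87 to 1.74, that of Pth1r from 0.24 to 0.48 and that of Runx3 from 0.11 to 0.41. No member was called with it, and the part of sex in these differences was not tested further.

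Among the other genes of the hedgehog pathway 10 of 12 were measured. Between the control tissues 9 of the 10 had a higher mean in IVD, the opposite side to Ihh, and none was called. Hhip, a membrane protein that binds hedgehog ligands, had a difference of 2.59 (standard error 0.77). Gas1 and Cdon, coreceptors of the pathway, had 1.38 and 0.93. In mutants all 10 had a higher mean in IVD (median 0.34, and 0.46 without mutant IVD 3), and none was called. Between mutant and control vertebrae 7 of the 10 had a lower mean in mutants (median -0.07), and none was called. Of the targets of hedgehog signaling, Ptch1 and Gli1 were among the 3 higher ones and Hhip among the 7 lower ones. Ptch1 and Gli1 differed by 0.40 (standard error 0.24) and 0.61 (standard error 0.52), each with an adjusted p of 0.999 by limma.

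Pth1r encodes the receptor of parathyroid hormone related protein. Control vertebrae had -0.07, 0.59 and 0.26, and control IVD had -1.31, -0.64 and -0.52. Mutant vertebrae had 1.39, 0.67 and 0.58, and mutant IVD had 0.09, -1.58, 0 and -0.83. The tissues did not overlap within either genotype. The difference between IVD and vertebrae was -1.08 in control (95% interval -1.97 to -0.19) and -1.46 in mutant tissue (-2.29 to -0.63), with adjusted p of 1 and 0.301 by limma. Mutant IVD arrays covered the whole range of control IVD, with a difference of 0.24 (95% interval -0.59 to 1.07). Without mutant IVD 3 the difference was -1.65 between mutant tissues and 0.05 between mutant and control IVD.

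Prkg2, a cGMP-dependent kinase that carries the signal of C-type natriuretic peptide in growth cartilage, had the widest split between tissues of the 9 genes. The mean of its 3 probe sets was 0.56, 1.05 and 0.19 in control vertebrae and -2.74, -2.45 and -1.72 in control IVD. In mutant vertebrae it was 1.32, 2.10 and 1.55. Mutant IVD 1, 2 and 4 had -1.83, -1.72 and -2.78, within or close to the range of control IVD, while mutant IVD 3 had 0.24, within the range of control vertebrae. The gene was 7.49-fold lower in IVD than in vertebrae of controls and 9.07-fold lower in mutants.

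The 3 probe sets of Prkg2 gave close values. Between control tissues they differed by -2.69, -3.13 and -2.89 and between mutant tissues by -3.07, -3.25 and -3.23. Of these, 1435460_at was the probe set called in the control arrays, with a standard error of 0.27 and an adjusted p of 0.0326 by limma under the random block, and 0.0590 under a fixed one. Between mutant tissues without mutant IVD 3 the differences were -3.70, -3.83 and -3.78, with adjusted p of 0.0074, 0.0168 and 0.0028 by limma. In the fit of all arrays their adjusted p ran from 0.0861 to 0.165.

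The study lists Prkg2, by its own threshold, among vertebrae enriched genes that rose in IVD after deletion of Tgfbr2. Here mutant and control IVD differed in Prkg2 by 0.78 (95% interval -0.41 to 1.98), and by 0.20 without mutant IVD 3. None of its probe sets was called in this comparison. Mutant vertebrae lay above all control vertebrae in 2 of the 3 probe sets and in the gene mean, which was 1.06 higher (95% interval -0.22 to 2.34, adjusted p = 0.999 by limma). Across the arrays Prkg2 was low wherever the annulus list was above 0.6 and above 0 wherever that list was below 0, as the plot of Prkg2 beside the marker lists shows. The cartilage matrix list overlapped between the tissues through mutant IVD 3, with 0.11, and left a narrow gap without it. Control IVD 2 had a cartilage mean of -0.03 with Prkg2 at -2.45, and control vertebrae 3 had 0.02 with 0.19.

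**Figure D3:**
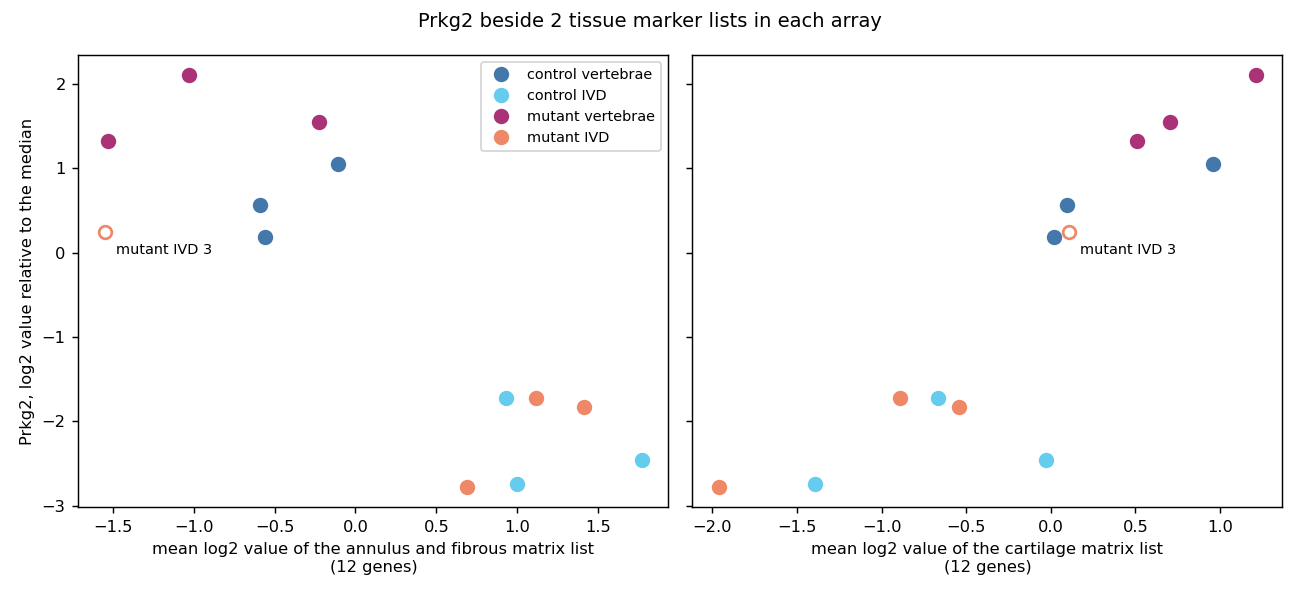
Prkg2 (vertical axis, mean of 3 probe sets, log2 relative to the median of the 13 arrays) against the mean log2 value of the annulus and fibrous matrix list (left) and the cartilage matrix list (right), 1 point per array, colored by group. Mutant IVD 3, the open circle, lies with the vertebrae arrays on both lists.

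Runx2 and Runx3 encode runt transcription factors, which bind the letters TGTGGT or close variants. The RefSeq table of promoters, on build GRCm38.p6 and covering 250 bases before to 50 bases after each start, held 15 promoters for 8 of the 9 genes and none for Prkg2. The motif TGTGGT, on either strand, was found in 16.8% of all 32851 promoters. Among the 15 it was found only in that of Runx2, with 3 matches, and in the first of 2 of Runx3, with 2 matches. Both are shown because they share an 18-base stretch with a pair of matches in tandem, which was found in 3 promoters of the table, those of Runx1, Runx2 and Runx3. The capitals mark the motif, read as ACCACA on the printed strand, and the lines give Runx2 at chr17:44814578-44814877, minus strand, and Runx3 at chr4:135120395-135120694, plus strand.
Runx2: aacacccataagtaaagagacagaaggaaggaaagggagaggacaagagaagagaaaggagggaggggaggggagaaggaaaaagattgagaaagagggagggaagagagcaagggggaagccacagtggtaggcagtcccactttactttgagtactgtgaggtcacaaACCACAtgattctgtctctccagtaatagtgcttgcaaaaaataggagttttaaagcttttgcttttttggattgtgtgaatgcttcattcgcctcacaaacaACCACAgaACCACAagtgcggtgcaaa
Runx3: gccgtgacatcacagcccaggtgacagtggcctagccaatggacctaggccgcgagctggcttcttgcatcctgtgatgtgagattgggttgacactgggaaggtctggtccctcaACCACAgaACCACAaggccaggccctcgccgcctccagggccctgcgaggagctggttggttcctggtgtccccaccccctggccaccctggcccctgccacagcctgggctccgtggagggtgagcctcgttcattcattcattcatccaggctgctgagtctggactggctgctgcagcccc
A match describes the letters and is not a measured site.

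Runx2, the factor that opens the hypertrophic and osteoblast programs, was 1.38, 1.16 and 0 in control vertebrae and -0.67, -1.98 and -1.57 in control IVD. Mutant vertebrae had 0.57, 2.36 and 1.31, and mutant IVD had -0.81, -1.63, 1.41 and -1.11. The third mutant IVD array was again with the vertebrae, and the other 3 were within the range of control IVD. The difference between mutant tissues was -1.95 (standard error 0.67, adjusted p = 0.437 by limma), and -2.60 (standard error 0.51, adjusted p = 0.0655) without mutant IVD 3. Mutant IVD differed from control IVD by 0.87, and by 0.22 without that array. The difference between control tissues, which placed the gene in the table that named it, was -2.25.

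Runx3, a second runt factor of cartilage that is also used by sensory neurons, had probe sets that disagreed. In 1421467_at the 13 arrays ran from -0.20 to 0.35 with overlap in all comparisons, and the mutant tissues differed by 0.02. In 1440275_at control vertebrae had 0.03, 0.65 and 0, and control IVD had -0.23, -0.53 and -0.53. Mutant vertebrae had 0.55, 0.88 and 0.55, and mutant IVD had -0.70, -0.70, 0.59 and -0.28. Mutant IVD 3, where neuronal genes were also highest, lay above 2 of the 3 mutant vertebrae arrays. In control vertebrae 3, the other array with a high neuronal mean (2.25), 1440275_at was the lowest of its group and 1421467_at the highest (0.14). The part of neurons in Runx3 was not tested. The mutant tissues differed by -0.93 with an adjusted p of 0.381 by limma, and without mutant IVD 3 by -1.22 with 0.0475.

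Foxa2 and Foxa3 encode forkhead factors, which act in hypertrophic chondrocytes and also in liver and, for Foxa2, notochord. Foxa2 was 0.85, 2.33 and 1.25 in control vertebrae and 0, 0.30 and -0.31 in control IVD. Mutant vertebrae had -0.67, 0.92 and 0.78, and mutant IVD had -0.80, -0.58, -0.30 and -0.57. The control tissues did not overlap, while mutant vertebrae 1 lay within the range of mutant IVD. The difference of Foxa2 between mutant and control vertebrae was -1.13 (standard error 0.43), with an unadjusted p of 0.0215 and an adjusted p of 0.998 by limma, and -0.63 without mutant vertebrae 1. The arrays overlapped, since mutant vertebrae 2 with 0.92 lay above control vertebrae 1. The mutant tissues differed by -0.90 and mutant and control IVD by -0.56, and without mutant IVD 3 by -0.99 and -0.65.

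Foxa3 was 0.79, 1.51 and 1.27 in control vertebrae and -1.04, -0.21 and -0.48 in control IVD. Mutant vertebrae had 0.29, 1.67 and 0.80, and mutant IVD had -1.27, -1.26, 0 and -1.35. The tissues did not overlap in either genotype. In pairs of control arrays of the same number Foxa3 differed by -1.83, -1.72 and -1.75. Its adjusted p by limma in the control arrays was 0.0326 under the random block and 0.0388 under the fixed one. Between mutant tissues it differed by -1.89 (adjusted p = 0.179), and by -2.21 (adjusted p = 0.0241) without mutant IVD 3. Mutant IVD differed from control IVD by -0.39 (95% interval -1.22 to 0.45), and by -0.71 without mutant IVD 3, with an adjusted p of at least 0.99989 by limma in both fits.

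Since both genes are used in liver, the liver mean is given beside them. In the control groups the array with liver transcripts, control vertebrae 1 (6.10) or control IVD 1 (5.89), had the lowest Foxa3 of its group. Among mutant IVD arrays mutant IVD 3, with a liver mean of 2.85, had the highest Foxa2 and Foxa3, and mutant IVD 4, with 3.98, had the lowest Foxa3. Foxa2 was highest in control vertebrae 2 and Foxa3 in mutant vertebrae 2, where the liver mean was -0.17 and -0.26. Without the 4 arrays with liver transcripts the control tissues differed by -1.80 in Foxa2. The part of liver transcripts in these values was not tested further. Of the notochord list 6 of 8 genes were measured, and T and Noto were not. The mean of the 6 ran from -0.76 to 0.40 in control vertebrae arrays and from 0.11 to 0.62 in control IVD arrays. Foxa2 was lower in control IVD, and the part of notochord in its values was not tested.

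Mef2c encodes a MADS-box factor that drives chondrocyte hypertrophy and is also used in muscle and endothelium. The mean of its 5 probe sets was 0.35, 0.53 and 0.05 in control vertebrae and -0.62, -0.20 and -0.43 in control IVD. Mutant vertebrae had 0.59, 1.25 and 0.63, and mutant IVD had -0.75, 0.19, -0.08 and -0.66. In this mean the tissues did not overlap in either genotype, and mutant IVD 3 lay within its own group. Of the single probe sets, 1451506_at overlapped between the tissues in both genotypes and 1451507_at in mutants. The difference between tissues was -0.73 in control (95% interval -1.31 to -0.14) and -1.14 in mutant (-1.69 to -0.60), with adjusted p of 0.99997 and 0.175 by limma for the gene mean. All 5 probe sets were lower in IVD in both genotypes, from -0.39 to -1.10 in control and from -0.70 to -1.34 in mutant tissue. The muscle list was at 2.07 in control IVD 1 and 2.25 in mutant IVD 4, where Mef2c was near the bottom of its group. Of 9 endothelium genes 8 had a lower mean in control IVD than in control vertebrae (median -0.26), the side of Mef2c. In mutants all 9 had a higher mean in IVD (median 0.27, and 0.29 with 1 gene lower without mutant IVD 3), the other side. The part of endothelium in Mef2c was not tested. Without mutant IVD 3 the mutant tissues differed by -1.23, and mutant and control IVD by 0.01 (0.09 with it). Mutant and control vertebrae differed by 0.51 (95% interval -0.07 to 1.10), and overlapped in each of the 5 probe sets although not in their mean.

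Col10a1 encodes type X collagen, the matrix protein that defines hypertrophic cells. It was -0.31, -0.04 and 0.82 in control vertebrae and -0.21, -0.03 and 0.05 in control IVD. Mutant vertebrae had 0.97, -0.16 and 0.01, and mutant IVD had -0.47, 0, 0.15 and 0.15. All groups overlapped, and control vertebrae 3, an array with neuronal transcripts, and mutant vertebrae 1, the array of largest spread, stood above the rest. The differences ran from -0.32 to 0.11 over the 4 comparisons of groups, against an SD of 0.44 between arrays of a group. Without mutant IVD 3 the mutant tissues differed by -0.38 and mutant and control IVD by -0.05. The 95% interval between the control tissues was -0.94 to 0.49, so differences within these bounds are not excluded by these arrays. Since the values hold no level, whether Col10a1 was above background at this stage is unknown. Its promoter, at chr10:34389731-34390030 on the plus strand, is shown as the 1 member promoter with a pair of forkhead letters TGTTTNC, here on the opposite strand and marked in capitals. The motif on either strand was found at least once in 20.5% and at least 2 times in 2.96% of all promoters. For Mef2 only 1 form of the motif was searched, CTA and TAG with any 4 letters between them. This form was found in 3.7% of all promoters and in none of the 15. Other forms, such as those ending in TAA, were not searched, so Mef2 letters in these promoters are not excluded.
Col10a1: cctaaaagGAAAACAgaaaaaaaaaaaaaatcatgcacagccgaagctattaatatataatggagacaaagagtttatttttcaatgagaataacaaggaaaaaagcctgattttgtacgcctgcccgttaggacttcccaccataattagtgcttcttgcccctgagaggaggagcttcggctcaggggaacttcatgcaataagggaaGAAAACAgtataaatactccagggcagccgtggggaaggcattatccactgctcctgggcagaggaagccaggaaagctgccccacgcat
No runt letters TGTGGT were found in this window.

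Genes of the late hypertrophic and osteoblast stage were split in direction. Of 14 listed genes 12 were measured, 8 had a lower and 4 a higher mean in control IVD than in control vertebrae, the median was -0.05 and none was called. Between the mutant tissues 8 of the 12 had a lower mean in IVD, with a median of -0.08 (6 of 12 and -0.04 without mutant IVD 3). There 6 of their 21 probe sets were lower at an unadjusted p under 0.05 and 0 higher, and none was called. Panx3, a channel of hypertrophic cells and osteoblasts, had differences of -1.32 (standard error 0.42) between control and -1.95 (standard error 0.40) between mutant tissues, or -2.16 without mutant IVD 3, on the side of the members. Sp7, the osteoblast factor downstream of Runx2, had -0.55 and -0.73, the latter -0.89 without that array. Bmp6, a ligand of maturing chondrocytes, had 1.33 (standard error 0.29) between control tissues, the other side.

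Partners and regulators of the members were split as well, with 9 of 18 lower and 9 higher in control IVD, a median of -0.04 and none called. Sox9, the master factor of cartilage, differed by -0.56 and Fgfr3, the growth factor receptor of proliferating and prehypertrophic cells, by -0.56. Zfp521, a zinc finger protein that represses Runx2, differed by 0.85 between control and 1.22 between mutant tissues (1.25 without mutant IVD 3). Of 12 cartilage matrix genes 11 were lower in control IVD, with a median of -0.79, and 1 probe set was called with the block, that of Matn1, a cartilage matrix protein (-3.41, adjusted p = 0.0277 by limma). Of 12 annulus and fibrous matrix genes 11 were higher there, with a median of 1.97, and 3 probe sets, of Tgfbi and Dpt, were called with the block.

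Between mutant and control IVD the members showed no shared direction. Of 15 probe sets 10 had a higher mean in mutant IVD (59.6% of all) and 5 a lower one, and the median of the 8 genes was 0.06 against 0.04 over all named genes. In no probe set did the groups separate, where 0.937% of all probe sets were lower and 3.68% higher without overlap. None passed an unadjusted p under 0.05 by limma or by the unequal variance test, where 3.13% of all did in limma, and none was called (0% of all). Without mutant IVD 3 only 6 had a higher mean and 9 a lower one, and the median was -0.06. Mutant IVD 3 was the highest of the 4 mutant IVD arrays in 11 of 15 probe sets, where it was so in 25.7% of all probe sets. The intervals reached beyond 1 on the log2 scale for Pth1r, Prkg2, Runx2, Foxa2 and Foxa3, so differences of 2-fold are not excluded by these arrays for those genes.

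Between mutant and control vertebrae 12 of the 15 had a higher mean in mutants (58.8% of all), and the median of the 8 genes was 0.36 against 0.03 over all named genes. The probe set of Ihh and 2 of Prkg2 were higher without overlap, 3 of 15 against 3.63% of all. Ihh and Foxa2 passed an unadjusted p under 0.05, in opposite directions, 2 of 15 against 2.61% of all. None was called by limma, where 0% of all were, and the unequal variance test also called none (2 of 15 at an unadjusted p under 0.05). The plot of differences shows both comparisons beside those between tissues, and all 4 share groups, so they are not independent.

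**Figure D4:**
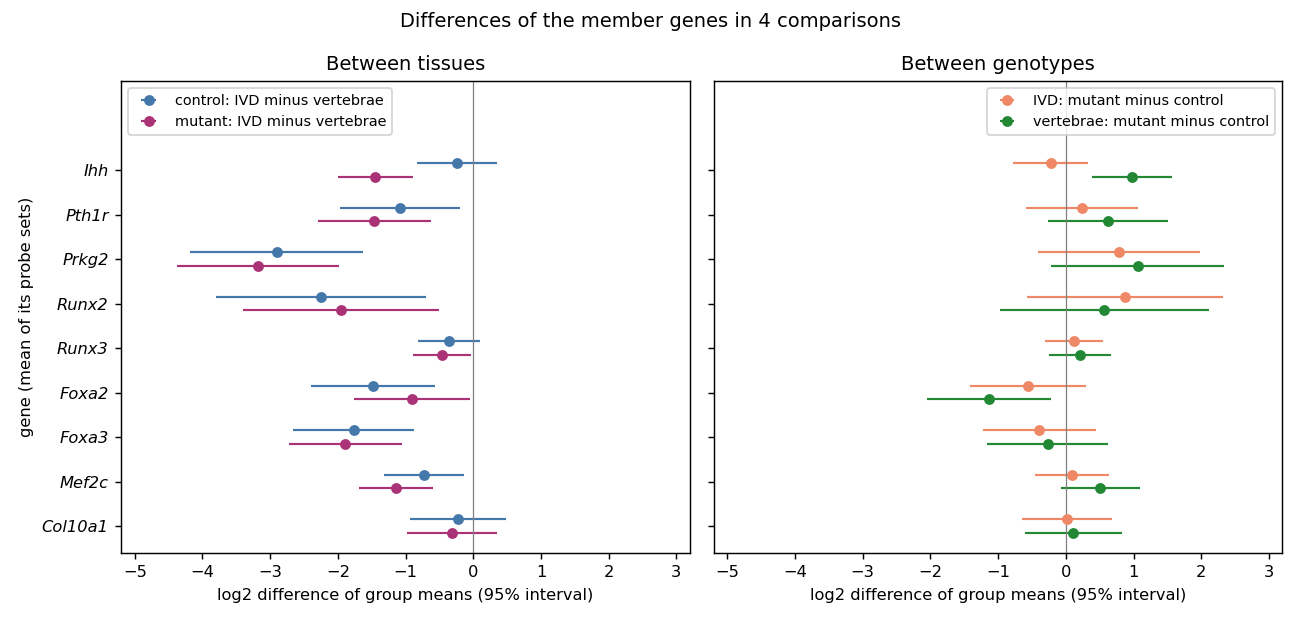
Log2 difference of group means (horizontal axis) with its 95% interval from limma for each member gene, between tissues (left) and between genotypes (right). Prkg2 has the lowest values between tissues (-2.90 and -3.18). Between genotypes in vertebrae, the interval of Ihh lies above 0 and that of Foxa2 below 0 (-2.06 to -0.21).

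For the change of the tissue difference with genotype, 13 of 15 probe sets had a value below 0 (50.5% of all) and the median of the 8 genes was -0.20, or -0.47 without mutant IVD 3. The values for Pth1r, Prkg2, Runx3, Foxa3, Mef2c and Col10a1 lay between -0.42 for Mef2c and -0.09 for Runx3 and Col10a1, with 95% intervals that held 0. Leaving out mutant IVD 3, these 6 ran from -0.86 for Prkg2 to -0.16 for Col10a1. Foxa2 and Runx2 had values above 0 in the fit of all arrays, 0.58 and 0.30, and without mutant IVD 3 they had 0.49 and -0.35.

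Across the 13 arrays the members differed in how alike they ran, given here as Pearson r over arrays that share tissue and genotype. Prkg2 had r of 0.90 with Runx2, 0.89 with Mef2c and 0.87 with Foxa3, and Foxa2 had 0.83 with Foxa3. Col10a1 had r of at most 0.50 with any other member. With mutant IVD 3 left out these values were 0.91, 0.91, 0.88, 0.84 and at most 0.51. Of all named genes outside the group, Matn1 (r = 0.98), Ttll3 and Pde8b were most like Prkg2, and Phactr2, Ntm and Pde8b most like Runx2. Chst11, Pxdc1 and Pde8b ran most like Mef2c, and Itga10, Sfxn2 and Matn1 like Foxa3. For Ihh these were Il3ra, Arhgap4 and Slc16a14, for Pth1r Serhl, Slc9a3r2 and Obsl1, and for Runx3 Gfod1, Fgfr4 and Pitpnc1. Acin1, Amacr and Gpatch4 ran most like Foxa2, and Il1r2, Gimap3 and Sgsm1 most like Col10a1. With 13 arrays and 18193 genes the highest r of any gene is large, so these names describe the arrays only. Of the 27 names, 19 came up again without mutant IVD 3.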

How the data were processed

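RNA from 13 laser-captured samples was hybridized to Affymetrix mouse arrays. Per the study's methods, the authors made signals with the RMA defaults in GeneSpring. The log2 values they deposited were centered, and each probe set has a median of exactly 0 over the 13 arrays, so a planned filter on dim probe sets could not be run.

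Groups came from the sample titles. Of 45101 probe sets 64 controls were left out, 34945 had 1 gene symbol, 932 had several and 9160 had none. With R 4.3.3 and limma 3.58.1, 4 group means were fitted to all 45037 probe sets with lmFit and eBayes, and 5 contrasts were tested, two-sided. A gene with several probe sets is given as their mean, and its interval comes from the same fit over gene means. An unequal variance test per probe set stands for the analysis of variance in the study's methods. The fit was tested on simulated data. Python was version 3.11.15.

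The members, the 12 gene lists and the tests were chosen with earlier results of these data known. Named were all members with every probe set, up to 4 genes per list with the smallest p in a comparison, the 3 genes most like each member, Tgfbr2 and Xist. Genes called only with the block are given as well. The median was planned over 9 genes and uses the 8 that the annotation names, with Runx2 added as an alternative. Some list genes were not analysed here, among them Pthlh, Spp1 and Bglap. Liver, erythroid, endothelium and the other tissue lists were used to describe arrays. The erythroid mean ran from 1.31 to 2.83 in the 4 arrays with liver transcripts and was at most 0.27 elsewhere. The endothelium mean ran from -0.52 to 0.58 over all arrays.

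The series states that control IVD and vertebrae came from the same mice. Array numbers were used to pair the control arrays, because their deviations from the group means had r of 0.80, 0.57 and 0.57 across probe sets for numbers 1, 2 and 3. For mutants these were -0.40, 0.24 and -0.15. The consensus correlation was 0.538 in the control arrays. Alternatives were replicate blocks, the 2 groups alone, quantile normalization, robust estimation, array weights, 4 list means as covariates and leaving out arrays.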

Additional observations from a re-analysis of the deposited data

Results flagged for a closer look

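Among the members, Foxa3 in mutant IVD 3 was the single value past Dixon's threshold for an outlying array. Its probe set, 1431900_a_at, was 0 there and -1.27, -1.26 and -1.35 in the other mutant IVD arrays, so that the gap to the nearest array was 0.93 of the range of the group. Of 16 probe sets tested in this way in the 4 mutant IVD arrays this was the 1 past Dixon's threshold. Chance alone gives about 1 in 20, which is close to 1 in 16, so the value is given as a description. The same share over all probe sets was not computed. The same array had the annulus list at -1.55 and the neuronal list at 2.90, and their part in the value was not tested.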

How the results depend on the processing

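Prkg2, Foxa3, Ihh and Runx3, the genes called under some setting, kept their direction in that comparison under all settings run. With the control arrays alone and the array number as a random replicate block, 2 members were called between the control tissues, and with it as a fixed replicate block 1 was. Leaving out each array in turn gave 0 to 1, with 1 only without mutant IVD 3. With the array number as a block over all arrays, fixed or random, 0 members were called. Between mutant IVD and mutant vertebrae 1 was called with array weights (55 of all) and 1 with the neuronal mean as a covariate (88 of all). Without the 4 arrays with liver transcripts 1 was called (29 of all), and each time it was of Prkg2. Leaving out each array in turn gave 0 to 6, with 6 only without mutant IVD 3 (177 of all). These 6 probe sets were of Prkg2, Runx3, Ihh and Foxa3. The median of the members between mutant and control IVD was -0.208 without the 4 liver arrays. The median of the interaction was -0.472 without these arrays, and leaving out each array gave -0.473 to -0.075, the lowest without mutant IVD 3. The cause was not tested beyond the smaller number of arrays. Of the summary values under alternatives 251 kept their side of the threshold or moved less than the spread. For single genes 1098 values kept their direction and side of the threshold, 2 moved, 11 became calls and 41 changed direction, none of them called in either fit. Between mutant and control IVD Col10a1 was -0.08 with quantile normalization, -0.163 with the neuronal covariate and -0.245 without the liver arrays, Mef2c was -0.017 with array weights, and Pth1r and Runx3 were -0.17 and -0.166 without the liver arrays. Between mutant and control vertebrae Col10a1 was -0.038 with quantile normalization, -0.15 with array weights and -0.121 without the liver arrays. The interaction was 0.141 for Prkg2 and 0.004 for Foxa3 with the fixed replicate block, 0.009 for Runx3 with quantile normalization and 0.166 for Col10a1 with array weights. For Runx2 it was -0.049 with quantile normalization, -0.262 with the neuronal covariate and -0.286 without the liver arrays. Leaving out each array gave ranges across 0 between mutant and control IVD for Pth1r (-0.003 to 0.575), Runx3 (-0.083 to 0.224), Mef2c (-0.079 to 0.235) and Col10a1 (-0.052 to 0.165). Between mutant and control vertebrae it did so for Foxa3 (-0.641 to 0.048) and Col10a1 (-0.236 to 0.445). Col10a1 ran from -0.458 to 0.109 between control and from -0.53 to 0.033 between mutant tissues. For the interaction the ranges were -0.865 to 0.141 for Prkg2, -0.348 to 0.773 for Runx2, -0.289 to 0.018 for Runx3, -0.446 to 0.251 for Foxa3 and -0.424 to 0.257 for Col10a1. Adding Runx2 moved the medians by less than the spread between arrays (SD 0.233). A filter on dim probe sets and a variance trend need a level and were not run, a fixed block within genotype gives no value between genotypes, and the unequal variance test is not defined for the interaction. The values carry no level, so signal over background and its limits are unknown.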
